A study of Mus musculus with 4 samples.

Results

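Gfap, Vim and Nes encode the 3 intermediate filament proteins of retinal glia considered here, GFAP, vimentin and nestin. They were picked by name, with no threshold on a measured value, out of the 20094 genes in the deposited single-cell tables, and were followed in Müller glia, astrocytes and neurons across 4 libraries. These genes and the gene lists used below were chosen with earlier results of these data known. All mice were Abca4-/-Rdh8-/- on the C57BL/6J background and 6 weeks old; loss of both genes slows the clearance of all-trans-retinal and makes the retina prone to damage by bright light. The unbleached vehicle library came from mice given DMSO and no bleaching light. The other 3 libraries were collected 1 day after a bleach with white light of 10000 lux for 30 min, from mice given DMSO (bleached vehicle), 2 mg/kg rolipram in DMSO or 2 mg/kg BC11-38 in DMSO. Rolipram inhibits phosphodiesterase 4 and BC11-38 inhibits phosphodiesterase 11, enzymes that break down cyclic nucleotides. Each library pooled 4 retinae of 2 mice, and each group had 1 library, so differences between libraries have no replicate check and treatment, animals and library cannot be told apart.

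Intermediate filaments are rope-like polymers that give a cell mechanical strength. Müller glia, which span the whole thickness of the retina, normally carry vimentin and little GFAP, whereas retinal astrocytes, which lie along the vessels of the nerve fibre layer, carry GFAP at rest. A rise of GFAP in Müller glia is the most used sign of retinal gliosis, and nestin is a filament protein of neural progenitors, vessel endothelium and some reactive glia.

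Müller glia numbered 588 in the unbleached vehicle library, 1387 in bleached vehicle, 1192 in rolipram and 595 in BC11-38, the order in which values are given below. Their median depth, in unique molecular identifiers (UMIs, each standing for 1 captured transcript), was 11503, 13678, 5543 and 6759. Every cell was therefore thinned at random to 2000 UMIs and shallower cells were left out, which removed 44, 59, 84 and 36 Müller cells and kept 544, 1328, 1108 and 559. Levels are UMIs of a gene per 1000000 UMIs (CPM) summed over the thinned cells of a class, with exact 95% Poisson intervals in parentheses, and shares have exact Clopper-Pearson intervals; both cover counting error only. Cells were grouped without the 3 genes, and the libraries filled different Müller clusters: cluster 11, led by Cp and Crym, held 287, 990, 182 and 1 cells, and cluster 31, led by Spc25 and Apoe, held 193, 51, 859 and 549. A UMI of a Y-linked gene with none of Xist was seen in 71.9% of Müller cells in bleached vehicle, 37.2% in unbleached, 30.1% in rolipram and 35.8% in BC11-38, so the sex make-up of the cells differed between libraries. Sub-clusters led by rod or bipolar genes made up 13.3%, 7.21%, 15.7% and 15.3% of Müller cells, and between 38 and 59 barcodes of a library also occurred in another.

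Gfap lies on mouse chromosome 11, minus strand, chr11:102887336-102900912 in GRCm38, with 9 exons in its principal transcript, and overlaps the antisense gene Gm26668, which is not among the genes of the tables. Vim lies on chromosome 2, plus strand, chr2:13573927-13582826, with 9 exons, and Nes on chromosome 3, plus strand, chr3:87971078-87980451, with 4 exons. The 250 bases before the RefSeq start site (GRCm38.p6), printed 5′ to 3′ on the gene's own strand, show what lies directly upstream of 1 annotated start site of the gene that differed most between libraries and of the sparsest one. The Gfap window is chr11:102897201-102897450, minus strand, and the Nes window is chr3:87970843-87971092, plus strand. Both genes also have annotated transcripts that start further upstream, so the Gfap window lies inside the annotated span of the gene and the end of the Nes window runs into its own. Capitals mark the motif GGGCGG, the core of an Sp1-type GC box, on either strand.

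Gfap: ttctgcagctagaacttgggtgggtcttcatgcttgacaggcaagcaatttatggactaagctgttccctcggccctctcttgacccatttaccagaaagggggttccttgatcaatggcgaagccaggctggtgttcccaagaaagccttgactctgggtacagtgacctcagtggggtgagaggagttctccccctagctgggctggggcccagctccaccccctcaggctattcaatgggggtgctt

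Nes: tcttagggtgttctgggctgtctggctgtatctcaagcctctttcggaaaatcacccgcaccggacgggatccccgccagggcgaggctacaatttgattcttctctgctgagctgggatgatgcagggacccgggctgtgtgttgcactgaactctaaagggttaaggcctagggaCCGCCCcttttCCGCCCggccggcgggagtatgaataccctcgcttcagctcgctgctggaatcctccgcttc

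In these letters Nes held the GC box on its minus strand, starting 73 and 62 bases before the start site, and Gfap did not hold it. GGGCGG was found in 32.7% of 32851 promoter windows of the same length. A STAT-type motif, TTCNNNGAA, was found in 7.02% of windows and an AP-1-type motif, TGANTCA, in 6.75%, both strands searched, and neither occurred in the windows of Gfap, Vim or Nes. The Vim window lies within an annotated 5′ untranslated region and is not printed. It held TATAAA once (12.4% of windows) and CCAAT at 2 places (33.8% of windows). These searches describe the letters in the windows and carry no information on binding.

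Gfap, the main filament gene of astrocytes and reactive Müller glia, was highest in the Müller glia of the bleached vehicle library and lowest in those of the BC11-38 library. Its level was 345.6 CPM (311.5–382.3) in unbleached vehicle, 595.3 CPM (566.3–625.3) in bleached vehicle, 65.9 CPM (55.6–77.5) in rolipram and 4.47 CPM (1.45–10.4) in BC11-38. These values rest on 376, 1581, 146 and 5 UMIs after thinning, and without thinning the levels were 415.3, 643, 98.2 and 5.69 CPM. All 4 counting intervals lay apart, and both drug libraries were below the unbleached library as well as below the bleached one.

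Vim, the filament gene that Müller glia carry at rest, followed the same order over a much narrower range. Its Müller level was 1899 CPM (1818–1983) in unbleached vehicle, 2138 CPM (2083–2195) in bleached vehicle, 1157 CPM (1113–1203) in rolipram and 745.1 CPM (695.3–797.4) in BC11-38, and 2067, 2203, 1345 and 770.9 CPM without thinning. Nes was sparse, with 12, 61, 25 and 8 thinned UMIs. Its Müller level was 11.03 CPM (5.70–19.3), 23.0 CPM (17.6–29.5), 11.3 CPM (7.30–16.7) and 7.16 CPM (3.09–14.1), and 18.6, 26.7, 12.8 and 6.43 CPM without thinning. Bleached vehicle was the highest of the 4 for Nes, but its interval overlapped that of the unbleached library, and the other 3 overlapped one another.

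**Figure D1:**
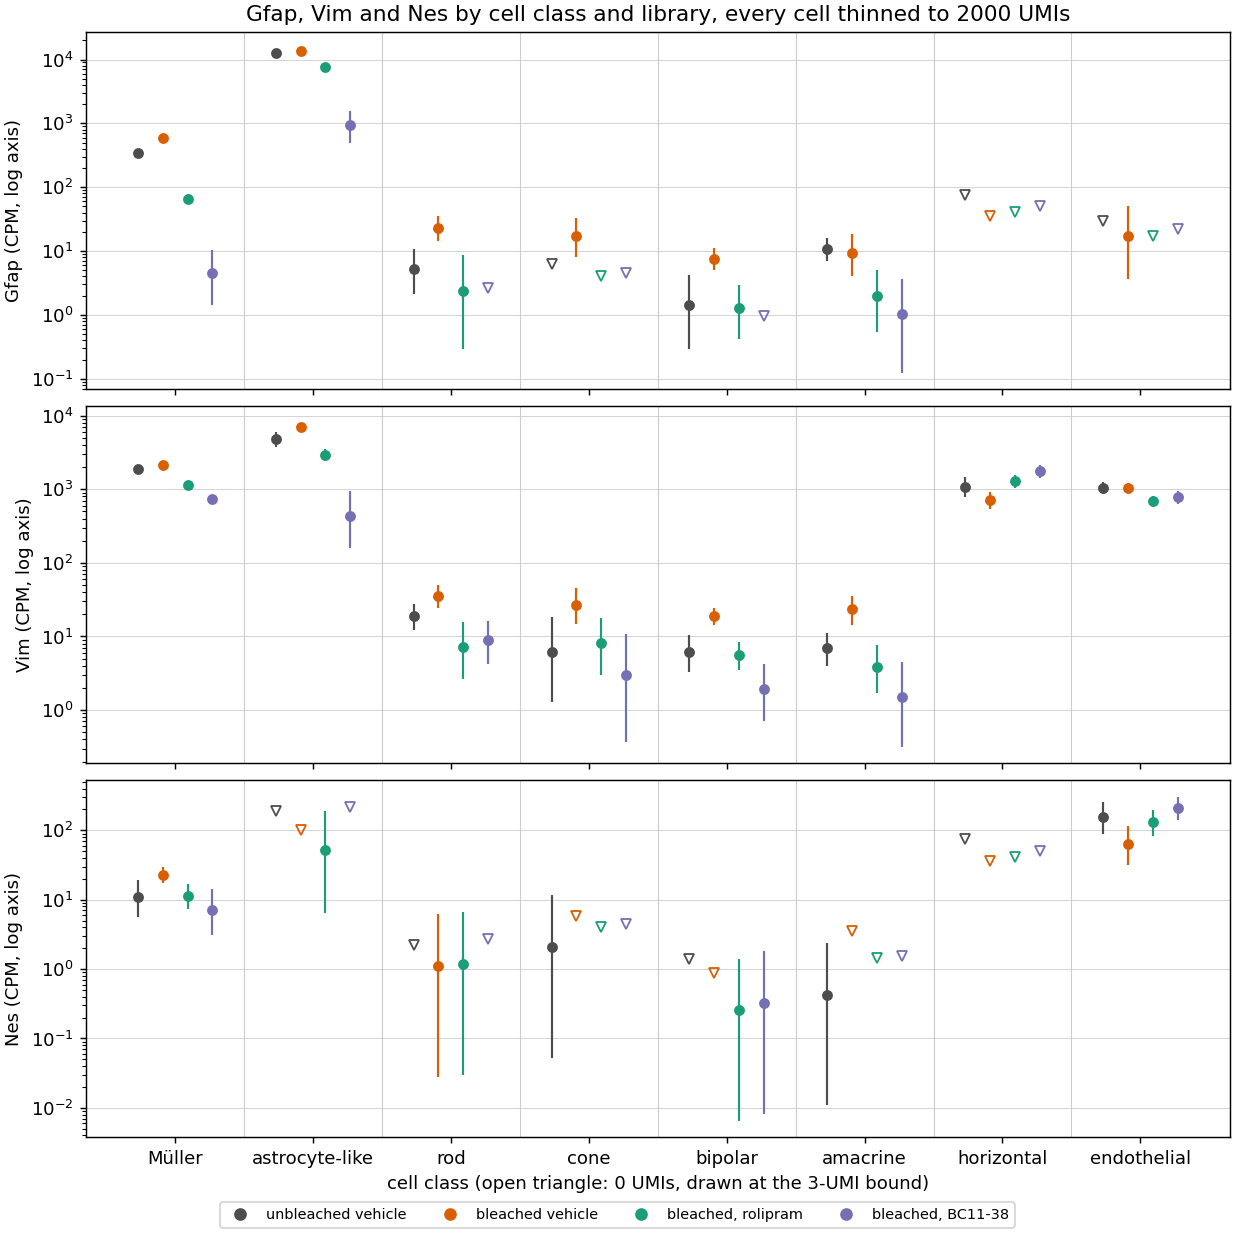
Level of Gfap, Vim and Nes (CPM after thinning to 2000 UMIs a cell, log axis) by cell class and library, with exact 95% Poisson intervals; an open triangle marks 0 UMIs, drawn at the bound of 3 UMIs. Gfap in Müller glia spans 595.3 CPM in bleached vehicle to 4.47 CPM in BC11-38, while Vim in Müller glia lies between 745.1 and 2138 CPM.

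The comparison of bleached with unbleached vehicle shows the libraries with and without light. Gfap was 1.72-fold higher after the bleach (1.54–1.93), Vim 1.13-fold higher (1.07–1.18) and Nes 2.08-fold higher (1.11–4.25), the intervals being exact and conditional on the summed counts. The sizes depended on the processing. Over the alternatives of the closing section, the log2 ratio of Gfap (0.78 here) ran from 0.27 to 2.59. That of Vim (0.17 here) ran from 0.0038 to 0.56, and that of Nes (1.06 here) from 0.0309 to 1.65. Genes with at least 100 thinned Müller UMIs over both libraries were counted as past 2-fold or not; Gfap and Vim could be counted and Nes could not, in this and the other 3 comparisons. Neither Gfap nor Vim was past 2-fold here, where 2.46% of 5286 genes were higher and 1.49% were lower. By fold, 254 of these genes lay above Gfap.

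The comparison of rolipram with bleached vehicle shows bleached libraries with and without the phosphodiesterase 4 inhibitor. Gfap was 9.03-fold lower in rolipram (7.62–10.8), Vim 1.85-fold lower (1.76–1.94) and Nes 2.04-fold lower (1.26–3.38). Over the processing alternatives of the closing section, the log2 ratio of Gfap (−3.18 here) ran from −3.40 to −1.93. That of Nes (−1.03 here) ran from −1.69 to 0.0596. Of the 2 genes counted, 1, Gfap, was past 2-fold lower and 0 were past 2-fold higher. Over all 6550 genes counted, 5.59% were past 2-fold lower and 8.66% higher, and 18 genes were lower by a larger fold than Gfap.

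The same bleached vehicle library served as the reference for BC11-38. Gfap was 133-fold lower in BC11-38 (56.9–410), Vim 2.87-fold lower (2.67–3.09) and Nes 3.21-fold lower (1.53–7.77). The size of the Gfap fold depended on the processing. Its log2 ratio was −7.06 here and ran from −9.17 to −5.54 over the alternatives of the closing section. Both genes that could be counted, Gfap and Vim, were past 2-fold lower and 0 were past 2-fold higher, where 8.65% of 5502 genes were lower and 10.7% were higher. 10 genes were lower by a larger fold than Gfap. Because both drug comparisons share that library, their values are given side by side and their likeness is not read.

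Rolipram and BC11-38 were given at the same dose and the eyes taken at the same time, so their libraries can be set against each other directly, as 1 pair of compounds. Gfap was 14.7-fold higher in rolipram than in BC11-38 (6.17–46.0) and Vim 1.55-fold higher (1.44–1.68). Nes was 1.58-fold higher with an interval from 0.69 to 4.04, so a difference in either direction was not detectable at this depth. Gfap alone of the 2 counted genes was past 2-fold higher, against 1.08% of 5292 genes, 4 of them above Gfap, and 0 were past 2-fold lower, against 0.586%.

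The spread of Gfap over single Müller cells moved with its level. A Gfap UMI was found in 30.9% (27.0–35.0) of the thinned cells in unbleached, 45.6% (42.9–48.3) in bleached vehicle, 8.66% (7.07–10.5) in rolipram and 0.716% (0.195–1.82) in BC11-38. At full depth the shares were 55.3%, 72.1%, 17.8% and 1.68%. Cells with at least 3 Gfap UMIs of their 2000 made up 7.90%, 16.3% and 1.08% of the first 3 libraries. None of the 559 BC11-38 cells had 3. With 3 cells taken as the bound for a count of 0, not an exact interval, that share could be up to 0.537%.

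Vim was broadly detected in Müller cells of every library, so its lower level in the drug libraries showed in the UMIs a cell more than in the share of positive cells. The share of Müller cells with a Vim UMI was 91.4%, 92.1%, 79.1% and 74.2% after thinning and 97.4%, 97.3%, 92.9% and 92.3% at full depth. The share with at least 3 Vim UMIs was 64.7%, 66.6%, 34.1% and 18.6%. A Nes UMI was found in 2.02%, 3.99%, 2.26% and 1.25% of thinned Müller cells and in 15.3%, 21.6%, 6.46% and 3.70% at full depth.

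**Figure D2:**
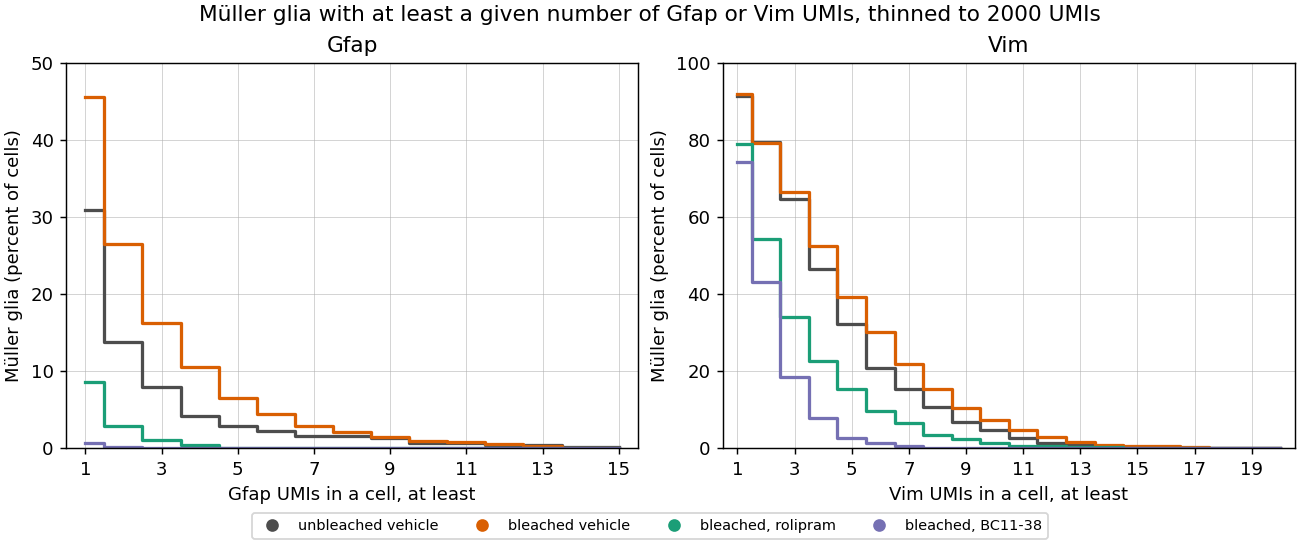
Share of Müller cells (percent) with at least a given number of UMIs of Gfap or Vim, each cell thinned to 2000 UMIs, by library. The Gfap curves separate from the first UMI, from 45.6% in bleached vehicle to 0.716% in BC11-38, whereas the Vim curves start between 74.2% and 92.1% and separate further along.

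Within a library, Müller cells with a Gfap UMI also carried more Vim in each of the 4 libraries. Vim stood at 2205 CPM in unbleached cells with Gfap and 1762 CPM in those without, at 2226 and 2065 CPM in bleached vehicle, at 2135 and 1064 CPM in rolipram, and at 1625 and 739 CPM in BC11-38, where only 4 cells had Gfap. In rolipram the 96 Gfap-positive cells thus had a Vim level close to that of bleached vehicle Müller glia. Glul, the glutamine synthetase of Müller glia, went the other way in 3 of the 4 libraries, at 3202 CPM with and 5436 CPM without Gfap in unbleached, 5667 and 9637 CPM in rolipram, 2375 and 11133 CPM in BC11-38, but 1450 and 1325 CPM in bleached vehicle. Cells with and without Gfap were not matched for depth before thinning. In rolipram cells of 2000 to 5000, 5000 to 10000 and 10000 to 20000 UMIs, Gfap was 20.4, 74.3 and 207.9 CPM. Vim in the same cells was 815.1, 1199 and 2343 CPM.

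Sub-clusters of the Müller glia, again made without the 3 genes, showed where Gfap was held. The highest values were in sub-cluster 7, led by Gpnmb, Ednrb, Hmox1 and Timp1, with 784.2 CPM in unbleached, 890 CPM in bleached vehicle and 309.5 CPM in rolipram. Sub-cluster 10, led by Hes5, Tsix and Etnppl, had 4 Gfap UMIs in 79 unbleached cells, 6 in 445 rolipram cells and 0 in 185 BC11-38 cells. Sub-cluster 11, led by Pde10a and Slco1c1, held 272 BC11-38 cells with 0 Gfap UMIs. Müller cells almost without Gfap were thus present in the unbleached library too, and sub-clusters 10 and 11 held 457 of the 559 thinned BC11-38 Müller cells.

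Where 2 libraries both had at least 20 thinned cells in a sub-cluster, they could be compared at like cell state. Gfap was higher in bleached than unbleached vehicle in 5 of 5 sub-clusters, with intervals apart in 2 of them, sub-clusters 4 and 5, the first led by rod genes. It was lower in rolipram than in bleached vehicle in 5 of 5, all with intervals apart, for example 176.5 against 758 CPM in sub-cluster 5, led by Gadd45g and Klf2. It was lower in BC11-38 than in bleached vehicle in 2 of 2, with 21.7 CPM in sub-cluster 5 and 27.8 CPM in sub-cluster 4, which rod genes lead and which held 3 of the 5 Gfap UMIs of BC11-38. Intervals overlapped in 3 of 3 for rolipram against BC11-38.

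Vim differed less evenly between sub-clusters. It was lower in rolipram than in bleached vehicle in 3 of 5 and higher in 2. In sub-cluster 9, led by Hes5, Calca, Npy and Serpina3n, Vim stood at 2454 CPM in unbleached, 2591 CPM in bleached vehicle and 2618 CPM in rolipram, with overlapping intervals. In sub-cluster 7 it was higher in rolipram, at 3143 CPM (2630–3727) in 21 cells, than in bleached vehicle, at 2039 CPM (1936–2146). The lowest values were in sub-clusters 10, 4 and 11 of BC11-38, at 727, 731.5 and 751.8 CPM. Nes had 34 of its 61 bleached vehicle UMIs in sub-cluster 0, led by Hmga2, Cdsn and Fosl1, of which only bleached vehicle had 20 cells or more.

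**Figure D3:**
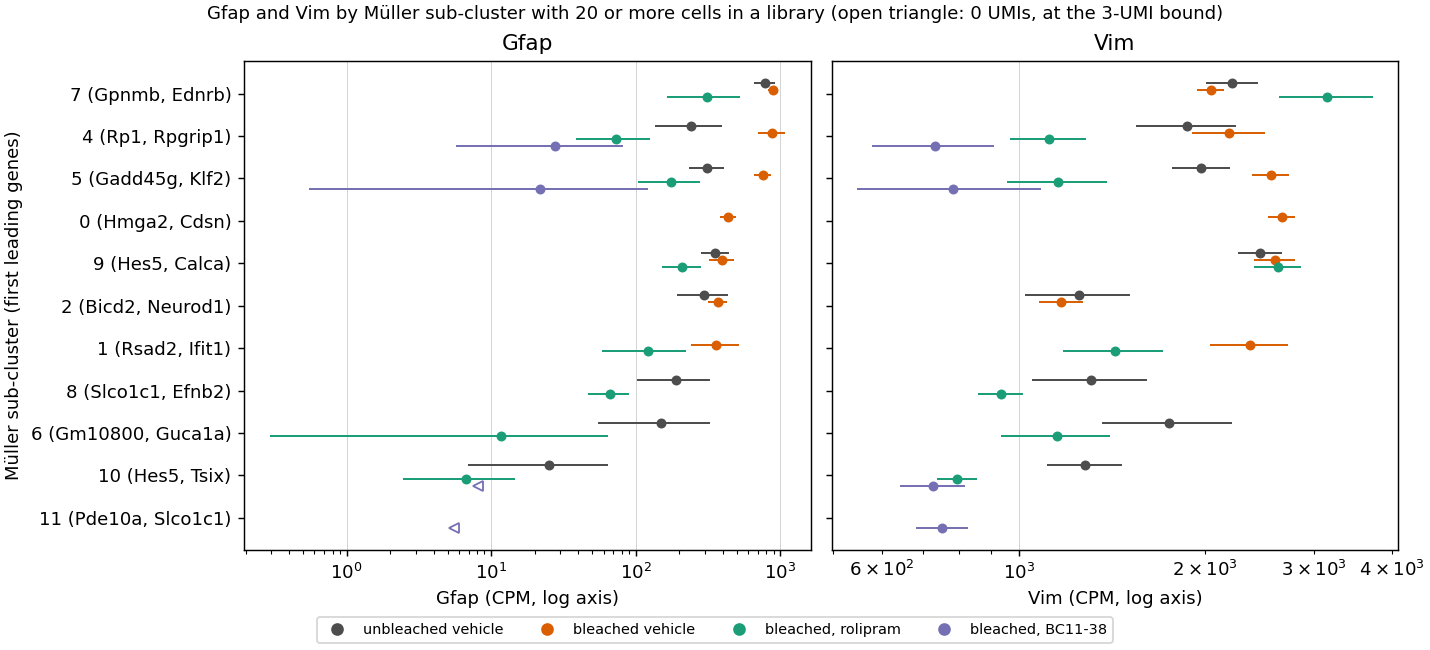
Gfap and Vim level (CPM after thinning, log axis) in each Müller sub-cluster and library with at least 20 thinned cells, with exact 95% Poisson intervals; open triangles mark 0 UMIs at the bound of 3. Rolipram lies below bleached vehicle for Gfap in 5 of 5 shared sub-clusters, and for Vim in 3 of 5.

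Depth before thinning differed between the libraries, so cells of like original depth were also compared. Among cells of 2000 to 5000 UMIs, Gfap was 327.9 CPM (234.2–446.5) in unbleached, 418.7 CPM (358.9–485.5) in bleached vehicle and 20.4 CPM (11.7–33.1) in rolipram, and BC11-38 had 0 UMIs in 104 cells. There the vehicle libraries overlapped and rolipram lay far below both. Among cells of 5000 to 10000 UMIs, Gfap was 68.5 CPM (41.8–106) in unbleached, 412 CPM (355.8–474.6) in bleached vehicle and 74.3 CPM (60.0–91.0) in rolipram, and BC11-38 had 0 UMIs in 398 cells. In this band, unlike the shallower one, unbleached and rolipram overlapped, and bleached vehicle stood 6.02-fold above unbleached. Among cells of 10000 to 20000 UMIs the levels were 336.2, 645.8, 207.9 and 45.5 CPM, the last from the 5 UMIs of BC11-38. Among cells above 20000 UMIs, which the drug libraries nearly lacked, unbleached and bleached vehicle overlapped at 750 CPM (639–874.8) and 731.5 CPM (673.9–792.8). The part of depth in the Gfap levels was not tested further.

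**Figure D4:**
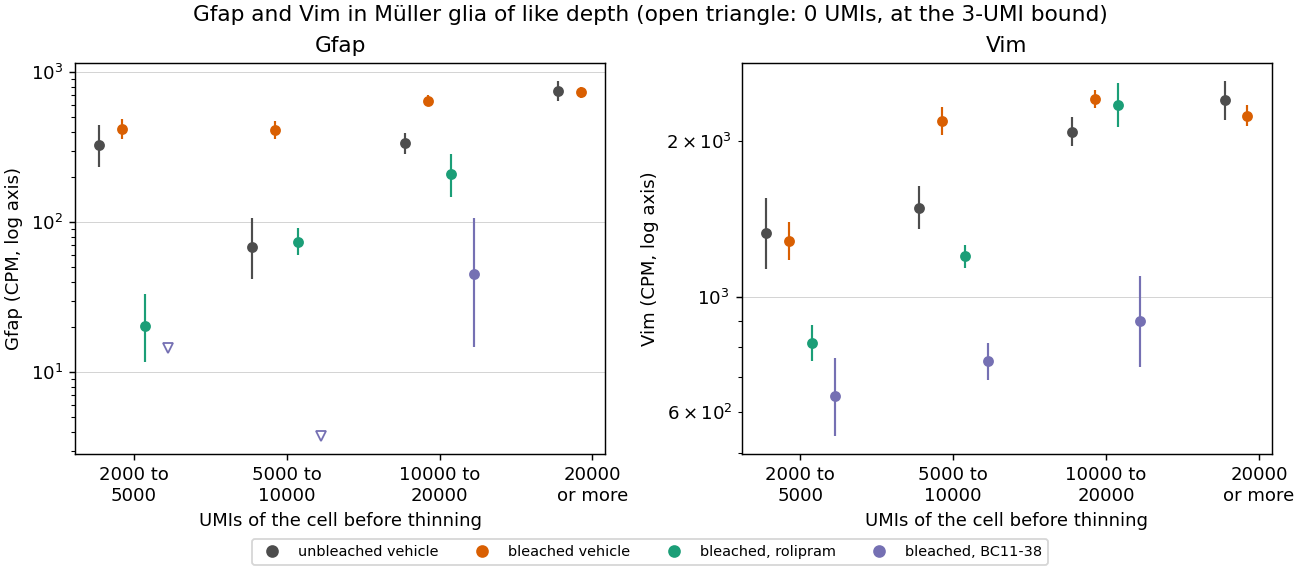
Gfap and Vim level (CPM, log axis) in Müller glia by the UMIs a cell had before thinning, by library, with exact 95% Poisson intervals and open triangles for 0 UMIs at the bound of 3. For Gfap, unbleached overlaps rolipram among cells of 5000 to 10000 UMIs (68.5 and 74.3 CPM) but lies far above it among cells of 2000 to 5000 UMIs (327.9 and 20.4 CPM).

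An astrocyte-like sub-cluster was found among the glia. It detected 5 of 9 astrocyte markers, Pax2, S100b, Gja1, Mlc1 and Aldoc, and was led by Glycam1, Rgs5, S100b and Pdgfra. Rgs5 is also a pericyte marker, but the other 7 pericyte markers were at 0, and of 8 endothelial markers only Kdr had a UMI. Pax2, a transcription factor that marks retinal astrocytes, was at 0 in the Müller glia of all 4 libraries. The sub-cluster held 8, 20, 21 and 7 cells, of which 8, 15, 19 and 7 were kept after thinning, too few for a ratio between libraries.

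Every one of these astrocyte-like cells had a Gfap UMI. Gfap stood at 12625 CPM (10944–14491) in unbleached, 13533 CPM (12249–14916) in bleached vehicle, 7711 CPM (6853–8646) in rolipram and 928.6 CPM (494.4–1588) in BC11-38. Per cell the lowest, median and highest Gfap UMIs of 2000 were 11, 19.5 and 54 in unbleached, 5, 29 and 49 in bleached vehicle, 7, 15 and 27 in rolipram and 1, 2 and 2 in BC11-38. The 7 BC11-38 cells lay below every cell of the other 3 libraries, and the rolipram cells overlapped both vehicle libraries. Within a library Gfap was 36.5-fold (30.6–43.5), 22.7-fold (20.3–25.4), 117-fold (95.6–144) and 208-fold (69.5–744) higher in astrocyte-like cells than in Müller glia.

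Vim in astrocyte-like cells was 4750 CPM in unbleached, 7033 CPM in bleached vehicle, 2947 CPM in rolipram and 428.6 CPM in BC11-38, from 76, 211, 112 and 6 UMIs. Nes had 0 UMIs after thinning in 3 of the 4 libraries and 2 in rolipram, and 5, 13, 10 and 0 UMIs without thinning. The astrocyte marker S100b, which encodes a calcium-binding protein, did not follow the filament genes and stood at 1438, 1367, 2026 and 4429 CPM. The summed level of the 9 astrocyte markers ranged from 4938 CPM in unbleached through 5900 and 7711 CPM to 9357 CPM in BC11-38. The Müller genes were not absent from these cells. The 12 Müller markers summed to 24062.5, 20533, 19684 and 28429 CPM, against 31083, 17838.5, 40101 and 44812 CPM in Müller glia. Pax2 had 4, 1, 18 and 5 UMIs in the astrocyte-like cells. Glul was 3643 CPM in the BC11-38 cells against 1000 to 1105 CPM in the other libraries, so the 7 BC11-38 cells also differed in a Müller gene.

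The glial classes contributed unequally to all Gfap captured, counted here without thinning. Müller glia held 71.6% of the Gfap UMIs in bleached vehicle and 51.6% in unbleached, but 23.6% in rolipram and 15.5% in BC11-38. The few astrocyte-like cells held 26.7% in bleached vehicle, 46.1% in unbleached, 75.1% in rolipram and 75.7% in BC11-38. For Vim, Müller glia held 83.4%, 88.0%, 76.8% and 58.0% of the UMIs in the usual order of unbleached, bleached vehicle, rolipram and BC11-38. For Nes, Müller glia held 48.4%, 72.7%, 31.2% and 10.1%, and endothelial cells held 42.1%, 19.2%, 57.5% and 85.3%.

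**Figure D5:**
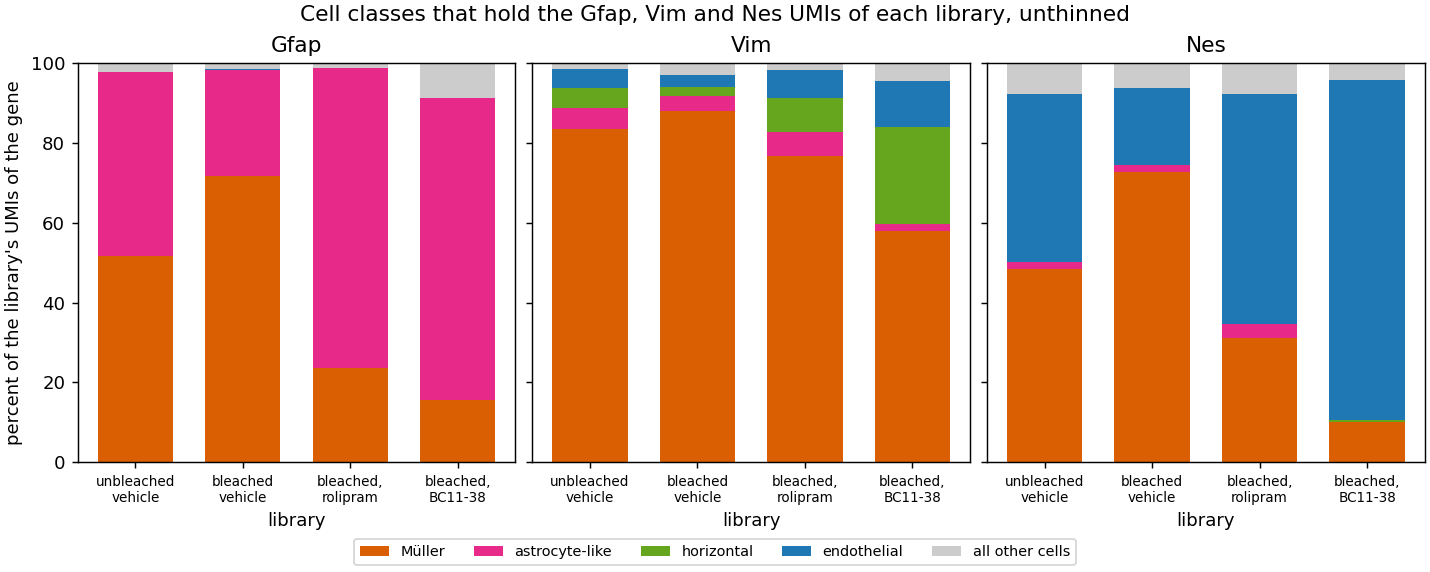
Share (percent) of each library's UMIs of Gfap, Vim and Nes held by each cell class. The Müller share of Gfap is 71.6% in bleached vehicle and 15.5% in BC11-38, where astrocyte-like cells hold 75.7%.

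Neurons carried little of the glial filament genes, and Gfap in rods followed the library order of Gfap in Müller glia. In rods, which should lack the 3 genes, Gfap stood at 5.23 CPM (2.10–10.8) in unbleached, 23.3 CPM (14.4–35.6) in bleached vehicle, 2.38 CPM (0.29–8.58) in rolipram and at 0 in BC11-38. A Gfap UMI was found in 1.05%, 4.43%, 0.475% and 0 of 669, 451, 421 and 559 thinned rods, and in 1.49%, 3.87%, 0.196% and 0 at full depth. With 3 cells taken as the bound for a count of 0, not an exact interval, the share at this depth could be up to 0.537%. The median rod had 1609.5, 1502, 1225 and 1397 UMIs, so the thinned rods were the deeper ones.

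Rod Gfap was 4.45-fold higher in bleached than in unbleached vehicle (1.82–12.4). In rolipram it was 9.80-fold lower than in bleached vehicle (2.40–86.2), from 2 against 21 UMIs, and in BC11-38 at least 8.68-fold lower. Rod Vim stood at 18.7, 35.5, 7.13 and 8.94 CPM, 1.90-fold higher in bleached than in unbleached vehicle (1.09–3.34), 4.98-fold lower in rolipram and 3.97-fold lower in BC11-38. In Müller glia Gfap was 66.1-fold (31.7–165) above the rod level in unbleached and 25.6-fold (16.7–41.4) in bleached vehicle. In BC11-38 the 5 Müller UMIs stood 1.67-fold above the bound that 0 rod UMIs allow, so a Müller level above the rod level was barely resolved there. Vim in Müller glia was 60.3-fold to 162-fold above rods in every library.

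The other neurons also had low levels, with differences between classes. Bipolar Gfap was 1.42, 7.63, 1.27 and 0 CPM, from 3, 26, 5 and 0 UMIs, and bipolar Vim 6.15, 18.8, 5.60 and 1.96 CPM. Amacrine Gfap was 10.7, 9.30, 1.95 and 1.02 CPM. Bleached over unbleached vehicle was 0.87 (0.34–1.98), from 8 and 25 UMIs, and 11 of the 25 came from 1 cell. A higher amacrine Gfap after the bleach, as seen in rods and bipolar cells, was not seen, but the interval takes in a higher level. Cones had Gfap UMIs after thinning in bleached vehicle, at 17.4 CPM, and 0 in the other libraries, and at full depth they had 7, 28, 2 and 0. Over all neurons but horizontal cells, Gfap was 5.54, 11.2, 1.44 and 0.29 CPM and Vim 9.02, 22.8, 5.51 and 3.2 CPM, while Nes had 2, 1, 2 and 1 UMIs.

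The counts were also set against those of Rlbp1, a retinoid-binding protein gene of Müller glia, in the same cells. In Müller glia there were 0.22, 0.56, 0.03 and 0.00 Gfap UMIs for each Rlbp1 UMI, and in rods 0.30, 0.91 (0.48–1.73), 0.12 and 0. For Vim the ratio was 1.22, 2.00, 0.46 and 0.24 in Müller glia and 1.09, 1.39, 0.38 and 0.56 in rods. In each library where rods had a UMI of the gene, the rod interval took in the Müller ratio, for Gfap and for Vim. Over all neurons but horizontal cells the Gfap ratio to Rlbp1 was 0.70 (0.44–1.1), 0.75 (0.54–1.05), 0.21 (0.10–0.40) and 0.04 (0.0049–0.16), the last from 2 UMIs, with intervals above the Müller ratio in all but bleached vehicle. Against Glul instead, it was 0.0643 in unbleached neurons and 0.0728 in unbleached Müller glia, and 0.106 and 0.431 in bleached vehicle. The Müller ratios leave out the astrocyte-like cells, which held 46.1%, 26.7%, 75.1% and 75.7% of the unthinned Gfap UMIs. The source of the neuronal Gfap UMIs was not tested.

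Horizontal cells, interneurons of the outer retina, were an exception for Vim. Vim stood at 1075 CPM (778–1448) in unbleached, 714.3 CPM (545.1–919.4) in bleached vehicle, 1278 CPM (1030–1567) in rolipram and 1750 CPM (1431–2118) in BC11-38, from 20, 42, 36 and 30 thinned cells. A Vim UMI was found in 85.0%, 71.4%, 88.9% and 96.7% of them. Gfap and Nes had 0 UMIs in the thinned horizontal cells of all 4 libraries, and Rlbp1 had 0, 0, 2 and 0. The order of the libraries was the reverse of that in Müller glia, with bleached vehicle lowest and BC11-38 highest, although neighbouring intervals in that order overlapped. With under 50 cells a library no ratio was formed. All 8 horizontal cell markers were detected in each library, with a summed level of 15150 to 17444 CPM.

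In endothelial cells, counted as a vessel class that carries nestin, Nes was 157 CPM (89.7–255) in unbleached, 64.0 CPM (31.9–114) in bleached vehicle, 131 CPM (82.8–196) in rolipram and 213 CPM (143–306) in BC11-38. It was 2.45-fold lower in bleached than in unbleached vehicle (1.07–5.85) and 3.33-fold higher in BC11-38 than in bleached vehicle (1.62–7.40), from 11 to 29 UMIs a library. For rolipram against bleached vehicle the ratio was 2.04 with an interval from 0.96 to 4.64. Endothelial Vim stood at 1039, 1035, 687.5 and 772.1 CPM, a narrower range than in Müller glia.

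Ordered by level in bleached vehicle, over the classes with 50 thinned cells or more and the astrocyte-like and horizontal cells, Gfap ran from astrocyte-like cells at 13533 CPM to Müller glia at 595.3 CPM, and then to rods, cones, endothelial, amacrine and bipolar cells at 23.3, 17.4, 17.4, 9.30 and 7.63 CPM, of which neighbouring values had overlapping intervals, with 0 UMIs in horizontal cells. Vim ran from astrocyte-like cells at 7033 CPM to Müller glia at 2138 CPM, endothelial cells at 1035 CPM and horizontal cells at 714.3 CPM, of which the last 2 overlapped, and then to rods at 35.5 CPM. Nes ran from endothelial cells at 64.0 CPM to Müller glia at 23.0 CPM and rods at 1.11 CPM. Microglia and pericytes, with 38 and 19 cells before thinning, were left out of this order. Nes in microglia was 3.23-fold the Müller level (0.85–8.69). Vim was 0.71-fold the Müller level in microglia (0.56–0.88) and 0.53-fold in pericytes (0.37–0.74), where endothelial cells had 0.48-fold (0.41–0.56).

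Genes that act on or beside the filaments were followed from lists, and each list is described by counts past 2-fold in Müller glia beside its median. Among the other filament genes, Lmna, which encodes lamin A and C of the nuclear envelope, could be counted in the 3 comparisons with bleached vehicle and had the library order of Gfap, with 44.1 CPM in unbleached, 96.8 CPM in bleached vehicle, 31.6 CPM in rolipram and 18.8 CPM in BC11-38. It was 2.19-fold higher after the bleach, 3.06-fold lower in rolipram and 5.15-fold lower in BC11-38. Synm, which encodes synemin, a partner of vimentin and GFAP in filaments, went the other way, at 25.7, 12.0, 32.5 and 25.04 CPM, and was 2.70-fold higher in rolipram than in bleached vehicle. Of the 15 listed genes in the tables, at most 2 had the 100 UMIs needed in any comparison, so most could not be counted.

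Of the genes for filament linkers, chaperones and modifying enzymes, 8 were counted for light and 0 passed 2-fold. For rolipram 2 of 9 were lower, against 5.59% of all genes, and for BC11-38 3 of 8, against 8.65%, with 0 higher in either and median log2 ratios of −0.64 and −0.73 where all genes had 0.15 and 0.13. Cryab, a small heat shock protein that binds GFAP and vimentin, stood at 1726, 2151, 1363 and 615 CPM, and was 3.50-fold lower in BC11-38 than in bleached vehicle. Plec, encoding the cross-linker plectin, stood at 29.4, 38.4, 19.0 and 17.9 CPM, past 2-fold lower in both drug libraries. Hspb1, another small heat shock protein gene, was 12.9, 30.5, 12.2 and 5.37 CPM.

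Cytokines that signal through gp130 to STAT3, a known inducer of Gfap transcription, were lower in both drug libraries than in bleached vehicle where they could be counted, while their receptors went both ways. For light, 2 of 9 counted genes were higher and 0 lower, against 2.46% and 1.49% of all genes. For rolipram 1 of 10 was higher and 3 lower, against 8.66% and 5.59%, and for BC11-38 1 of 9 was higher and 5 lower, against 10.7% and 8.65%. The median log2 ratios were 0.28, −0.01 and −1.46, where all genes had −0.04, 0.15 and 0.13. Lif, a leukaemia inhibitory factor gene that photoreceptor damage is known to induce in Müller glia, was 9.19 CPM in unbleached, 45.2 CPM in bleached vehicle, 5.42 CPM in rolipram and 3.58 CPM in BC11-38. It was 4.92-fold higher after the bleach, 8.34-fold lower in rolipram and 12.6-fold lower in BC11-38. Clcf1, a cytokine that signals through the CNTF receptor, stood at 13.8, 48.6, 17.6 and 10.7 CPM, and Cntf, ciliary neurotrophic factor, at 148, 201, 90.3 and 42.9 CPM.

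On the receptor side, Cntfr, the CNTF-binding subunit, was higher in both drug libraries than in bleached vehicle, at 120, 72.7, 169 and 237 CPM. Il6st, which encodes gp130 itself, lay between 101 and 150 CPM, and Lifr between 17.7 and 31.2 CPM. Osmr, the oncostatin M receptor, followed Gfap, at 70.8, 96.4, 48.3 and 21.5 CPM, and Il6ra had 2, 54, 0 and 0 UMIs. Stat3 stood at 116, 141, 107 and 51.0 CPM, 2.76-fold lower in BC11-38 than in bleached vehicle. Socs3, the feedback inhibitor that STAT3 induces, did not follow Gfap in rolipram, at 426, 382, 509.5 and 240 CPM. Rolipram was past 2-fold above BC11-38 for 4 of 7 counted genes of the list, Osmr, Socs3, Cntf and Stat3, and below for 0. Over all 5292 genes counted, 1.08% were above and 0.586% below. The median log2 ratio of the list was 1.06 where all genes had −0.01.

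Most counted markers of reactive glia were past 2-fold lower in the drug libraries than in bleached vehicle. For light 2 of 8 were past 2-fold higher (2.46% of all genes) and 0 lower, for rolipram 6 of 9 were lower (5.59%) and 0 higher, and for BC11-38 5 of 7 were lower (8.65%) and 0 higher. Hspb1 is also in the list of linkers and chaperones, and Osmr in the gp130 list, so these lists are not independent. Not all had the order of Gfap: Cxcl10, a chemokine gene, stood at 45.0, 29.4, 10.4 and 0 CPM, and S1pr3, a sphingosine phosphate receptor gene, at 131, 172, 168 and 102 CPM. Timp1, a metalloproteinase inhibitor, was 38.6, 108, 9.48 and 0 CPM, and at least 40.1-fold lower in BC11-38 than in bleached vehicle. Lcn2, an iron-carrier binding protein, was 112, 294, 37.5 and 0.894 CPM, Serpina3n, a protease inhibitor, 138, 210, 58.7 and 0.894 CPM, and Cd44, a hyaluronan receptor, 273, 433, 148 and 71.6 CPM. The median log2 ratio of the list was 0.53 for light, −1.48 for rolipram and −2.59 for BC11-38, where all genes had −0.04, 0.15 and 0.13. The last median is the value of Cd44 and does not depend on Timp1, which had 0 UMIs. Rolipram was past 2-fold above BC11-38 for 3 of 5 counted markers and below for 0, against 1.08% and 0.586% of all 5292 genes counted.

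The 12 genes listed for resting Müller glia were the same 12 markers that named the Müller clusters, so they are no independent list. Of these 12 genes, 7 were past 2-fold higher and 0 lower in each drug library against bleached vehicle. Over all genes, 8.66% were higher for rolipram and 10.7% for BC11-38. For light 0 were higher and 3 lower, against 1.49% of all genes lower. The median log2 ratios were −0.64 for light, 1.13 for rolipram and 1.22 for BC11-38, where all genes had −0.04, 0.15 and 0.13. Clu, which encodes clusterin, was an exception for BC11-38, at 7136, 4634, 5938 and 4435 CPM. Glul stood at 4746, 1382, 9293 and 11071 CPM, so the bleach library was 3.43-fold lower than unbleached and the drug libraries 6.72-fold and 8.01-fold above it. Car14, a carbonic anhydrase gene, stood at 738, 310, 969 and 1459 CPM. Among the regulators of glial genes, Hes1 and Hes5, transcription factors downstream of Notch, were the 2 of 15 past 2-fold lower for light, with 0 higher. The share of all genes past 2-fold lower was 1.49%. Hes5 stood at 336, 137, 515 and 744 CPM and Hes1 at 1415, 599, 1307 and 2473 CPM, and 3 of 16 regulators were higher for rolipram and 2 of 15 for BC11-38, with 0 lower in either, against 8.66% and 10.7% of all genes higher. The medians of the regulators were −0.29 for light, 0.72 for rolipram and 0.64 for BC11-38. Sox9 is in both the regulator list and the list for resting Müller glia.

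Likeness of pattern was measured as Pearson's r of log2(CPM + 10) over 24 profiles, 6 cell classes in each of 4 libraries, among 13000 genes. The 6 classes had at least 50 thinned cells in each library, so the astrocyte-like and horizontal cells were left out. The profiles share libraries, depth and free RNA, and the values are descriptions. The genes most like Gfap were Prss56 (0.946), Cxcl10 (0.935), Arc (0.933), Gpd1 (0.928) and Hsd17b2 (0.915), and Prss56 stood at 278, 505, 46.0 and 17.0 CPM in Müller glia. Arc, Gpd1 and Hsd17b2 also had the library order of Gfap there, but Cxcl10 did not, at 45.0, 29.4, 10.4 and 0 CPM. The genes most like Vim were Ccn1 (0.990), Anxa5 (0.983), Zfp36 (0.979), S1pr3 (0.978) and Zfp36l1 (0.977). None of these had the library order of Vim in Müller glia, where Ccn1 stood at 1166, 1038, 1297 and 985 CPM. Those most like Nes were Fas (0.987), Ccnd2 (0.984), 4930523C07Rik (0.984), Lama5 (0.982) and Tns1 (0.981). Between the 3 filament genes r was 0.586 for Gfap with Vim, 0.767 for Vim with Nes and 0.068 for Gfap with Nes.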

How the data were processed

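Retinal single-cell libraries (10x v3 chemistry) were analysed, 1 for each of 4 groups. The authors deposited natural log values of each UMI count per 10000 UMIs of its cell, plus 1, as the values of each cell show. Cell Ranger 6.0.1, Seurat 3.2.2 and mm10 are named in the submitters' processing notes; their settings, strand and intron counting were not given in the sources used here. Whole UMIs were recovered by inverting the log and scaling each cell to its smallest step, and 100% of values came out within 0.001 of a whole number, so the summed UMIs were analysed as counts. Cells were clustered with scanpy 1.11.5 (2000 variable genes without Gfap, Vim, Nes, Xist, Tsix and Y-linked genes, 30 components, 15 neighbours, Leiden resolution 1) and named from at least 3 detected markers. A doublet caller marked 0, 2, 13 and 0 cells where 4.56% to 6.32% were expected, so it did not work; the 15 marked cells were removed and other doublets remain. Libraries held 28983626 to 44381616 UMIs. With 1 library a group there was no test, and shared replicate numbers pair nothing. Ratios used thinned counts with exact intervals. Ratios between libraries by class needed at least 50 thinned cells in both libraries, and counted genes at least 100 UMIs over both. Ratios between classes within a library needed more than 3 UMIs in each class and had no minimum of cells. Named beside the members were list genes past 2-fold, at most 4 per list and comparison, the gp130 list, and the 5 genes most like each member. The interval scripts were tested on simulated data. Members and lists were chosen with earlier results of these data known. Annotation was GENCODE M21 and promoter windows came from RefSeq (GRCm38.p6), with all 3 genes matched. A further group named in the series text was not analysed here.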

Additional observations from a re-analysis of the deposited data

Results flagged for a closer look

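Vim in horizontal cells differed between the libraries in the opposite direction to Vim in Müller glia. In rolipram it was 563.5 CPM above bleached vehicle (1278 against 714.3 CPM), where Müller glia changed by −981.1 CPM. In BC11-38 it was 1036 CPM above bleached vehicle (1750 against 714.3 CPM), where Müller glia changed by −1393 CPM. Nes in endothelial cells was 149.3 CPM higher in BC11-38 than in bleached vehicle (213.2 against 64.0 CPM), where Nes in Müller glia changed by −15.8 CPM. With 1 library a group, the differences between the cell classes were not tested. Horizontal cells numbered 30 to 42 in these libraries after thinning, and the endothelial values rest on 11 and 29 UMIs.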

How the results depend on the processing

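Over 10 alternatives, 3 of them chosen after seeing the data, 117 of 118 ratios kept their direction, 90 lay within the counting interval of the reported value, and 27 moved. No paired analysis was possible because each group has 1 library. All ratios here are log2. The 1 reversal was Nes for rolipram against bleached vehicle, −1.03 as reported and 0.0596 among cells of 5000 to 10000 UMIs, from 14 and 5 UMIs; thinning to 1000 UMIs moved Nes for light from 1.06 to 0.0309. For Gfap, counting astrocyte-like cells as Müller glia gave 0.50 for light (0.78 as reported), −1.93 for rolipram (−3.18) and −5.54 for BC11-38 (−7.06). A gate on markers instead of clusters, which takes in astrocyte-like cells, gave −2.22 and −5.82 for the drugs. In the usual order it held 519, 924, 1127 and 565 cells, where the clusters held 544, 1328, 1108 and 559, so mainly bleached vehicle became smaller. Leaving out sub-clusters led by rod or bipolar genes left 1 Gfap UMI in BC11-38, with −9.17 against bleached vehicle and 6.04 for rolipram over BC11-38 (3.88). Cells of 5000 to 10000 UMIs gave 2.59 for light and −2.47 for rolipram, and no ratio for BC11-38, with 0 UMIs: bleached vehicle stood at least 109-fold and rolipram at least 19.7-fold above its bound. Cells with a Y-linked UMI and no Xist gave 0.27 for light and −2.79 for rolipram, and no thinning −2.71 for rolipram. For Vim, light (0.17) came to 0.26 with TMM scaling, 0.0038 in the Y-linked cells, 0.56 at 5000 to 10000 UMIs and 0.0918 unthinned. Vim for rolipram (−0.89) came to −1.11 with TMM, −0.75 in the Y-linked cells, −0.98 with the gate, −0.71 unthinned and −0.78 thinned to 1000. Vim for BC11-38 (−1.52) came to −1.77 with TMM, −1.79 in the Y-linked cells and −1.65 with the gate; rolipram over BC11-38 (0.64) came to 1.04 in the Y-linked cells and 0.80 unthinned. TMM scaling moved the log2 ratios of all genes by 0.09 for light, −0.22 for rolipram, −0.25 for BC11-38 and 0.02 between the drugs. A minimum of 20 UMIs gave, past 2-fold higher and lower, 450 and 392 genes for light, 1311 and 682 for rolipram, 1415 and 967 for BC11-38, and 363 and 164 between the drugs. Depth limits Nes, with 8 to 61 UMIs a library, and Gfap in BC11-38, with 5.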
